A study of Mus musculus with 17 samples.

Results

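MiR-199a and miR-214 of the mouse kidney were followed through 3 probes, mmu-miR-199a-3p, mmu-miR-199a-5p and mmu-miR-214, which were taken by name from the 569 mouse miR probes of the array. Each probe was printed as 6 spots. All samples were kidney RNA of C57BL/6 mice aged 10 to 12 weeks, described as female in the labels and as male in the methods, and each sample was a pool of 3 mice. Naïve mice were untreated, IRI mice underwent ischemia reperfusion injury with 30 minutes of warm ischemia, and sham controls were operated on without ischemia. IRI and sham kidneys were taken on 8 days, in the early phase on days 1, 3 and 5, then on days 7 and 10, and late on days 14, 21 and 30, with 1 pool per arm and day, so that the 17 samples hold 8 IRI pools, 8 sham pools and 1 naïve pool. The IRI pool of a day (dye Cy3) and the sham pool of the same day (dye Cy5) shared an array, and the naïve pool lay alone, in Cy3, on a 9th array. No single day has a replicate, and the days served as replicates of an arm.

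A miR hairpin is cut into an arm from its 5′ side and an arm from its 3′ side, and the arm loaded into Argonaute directs repression of messenger RNAs that pair with its seed, the bases 2 to 8. MiR-199a and miR-214 are processed from Dnm3os, a non-coding RNA transcribed from the strand opposite Dnm3, which encodes a dynamin. The cluster is known from mesenchymal cells, where it is driven by the factor Twist1. In fibrosis, miR-199a-5p is known as a repressor of caveolin-1 in lung fibroblasts and miR-214 as a miR that promotes scarring of the obstructed mouse kidney. Since both hairpins lie in 1 transcript, the question for these data was whether the 3 miRs moved together after IRI.

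The sequences of the miRs that the probes were designed for show which loci each probe can read. They are written 5′ to 3′ with the seed in capitals, and the 2 relatives on the array, mmu-miR-199b* and mmu-miR-214*, are given for comparison.
mmu-miR-199a-3p: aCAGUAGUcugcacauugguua
mmu-miR-199a-5p: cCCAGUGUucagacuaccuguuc
mmu-miR-214: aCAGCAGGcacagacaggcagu
mmu-miR-199b*: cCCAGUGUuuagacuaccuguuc
mmu-miR-214*: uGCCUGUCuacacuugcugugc
The 3 miRs have 3 different seeds, although mmu-miR-199a-3p and mmu-miR-214 share 6 of their first 8 bases. Over the whole length they are the same at 8 of 22 positions. No other probe on the array has the seed of mmu-miR-199a-3p, and mmu-miR-761 is the 1 other probe with the seed of mmu-miR-214. The target of mmu-miR-199a-5p differs from that of mmu-miR-199b* by C10U, counted from 1 at the 5′ end with the base of mmu-miR-199a-5p first, so these 2 probes may share signal.

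In the RefSeq annotation of GRCm38.p6, the hairpin Mir199a-2 lies at chr1:162217814-162217923 and the hairpin Mir214 at chr1:162223368-162223477, both on the plus strand and 5444 bases apart. Both are inside the long non-coding RNA gene Dnm3os (chr1:162217623-162225550), which lies within the limits of the protein-coding gene Dnm3 (chr1:161982450-162478321). The 2 hairpins are shown from RefSeq with the stretches that the probes read in capitals, the 5′ arm first.
Mir199a-2: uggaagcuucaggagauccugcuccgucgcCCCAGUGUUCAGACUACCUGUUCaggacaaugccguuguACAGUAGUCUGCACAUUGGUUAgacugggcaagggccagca
Mir214: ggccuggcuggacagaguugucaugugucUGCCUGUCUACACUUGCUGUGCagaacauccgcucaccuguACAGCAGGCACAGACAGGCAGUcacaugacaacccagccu
MiR-199a has a second hairpin, Mir199a-1, at chr9:21496495-21496564 inside Dnm2, and the hairpin Mir199b lies at chr2:32318460-32318569 inside Dnm1. The mature sequence of mmu-miR-199a-3p is found at 3 RefSeq loci (Mir199a-1, Mir199a-2 and Mir199b), that of mmu-miR-199a-5p at 2 (Mir199a-1 and Mir199a-2) and that of mmu-miR-214 at 1 (Mir214). Signal of mmu-miR-199a-3p from these 3 loci cannot be told apart on the array.

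**Figure D1:**
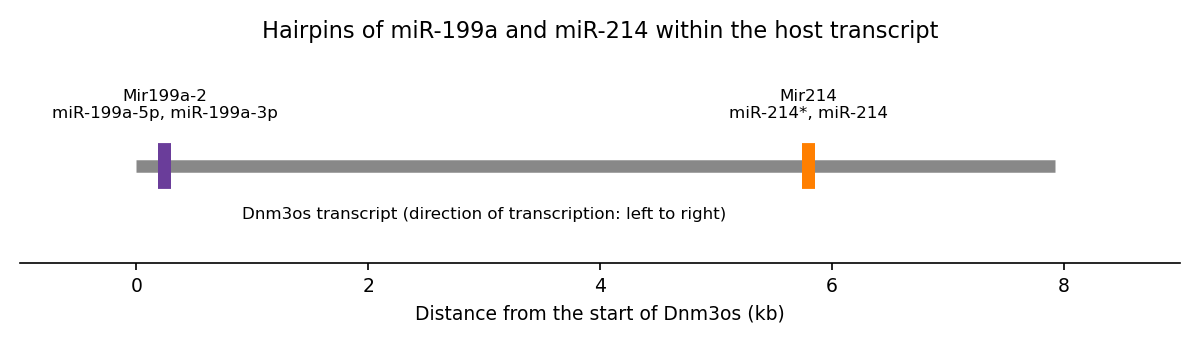
Map of the host transcript Dnm3os (grey bar, 7928 bases), with distance from its start in kb on the x axis. The hairpin of miR-199a lies 191 to 300 bases from the start and that of miR-214 5745 to 5854 bases from it.

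The median intensity of the 250 empty spots was 185.5 to 516 in the IRI channels, 32.98 to 43.9 in the sham channels and 511 in the naïve channel. Above background means here that the 6 spots of a probe averaged over 3 median absolute deviations more than that median. Levels below are normalized intensities on a linear scale, after background correction, loess within arrays and quantile normalization between them. A miR that reached 200 in at least 1 sample was tested, which left 162 miRs with all 3 members among them. On the array the 2 relatives were at the limit: mmu-miR-199b* was above background in 5 of the 16 IRI and sham channels and mmu-miR-214* in 1, and neither reached 200 in any sample. Because an IRI pool was always Cy3 and a sham pool always Cy5, a constant difference between arms and a dye effect cannot be told apart, whereas a constant dye effect cancels in a change with time. Naïve shared the dye of IRI and not that of sham, so a difference between naïve and sham cannot be told apart from a dye effect either.

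The 3p arm, mmu-miR-199a-3p, was above background in all 17 samples. In IRI its level was 1575 (day 1), 2591 (day 3), 2698 (day 5), 4141 (day 7), 3163 (day 10), 6012 (day 14), 4354 (day 21) and 7161 (day 30). In sham controls it was 970.4 (day 1), 1174 (day 3), 566 (day 5), 1329 (day 7), 795 (day 10), 1231 (day 14), 968 (day 21) and 1033 (day 30). The lowest IRI pool was thus above the highest sham pool. Such a gap between arms was found in 2.47% of the tested miRs, 4 of 162. The naïve level was 1377, above all 8 sham pools and below all 8 IRI pools. With the authors' processed values, naïve was again above all sham pools, but IRI day 1 was lower than naïve, at a log2 difference of -0.23 in place of 0.19.

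The 5p arm of miR-199a, mmu-miR-199a-5p, was close to background. Its scanner intensity on day 14 was 567 in IRI against 185.5 for empty spots, and 68.8 in sham against 38.2. It was not above background in either channel of day 10. In IRI the normalized level was 117 (day 1), 143 (day 3), 155 (day 5), 157 (day 7), 112 (day 10), 224 (day 14), 219.8 (day 21) and 244 (day 30). In sham controls it lay between 109 and 137 with a median of 122. The IRI pools of days 1 and 10 lay within the sham range and the other 6 above every sham pool, those from day 14 on by the widest margin. The naïve level was 99.2, below all other pools. That position depended on the processing, since 5 of 8 IRI pools and 2 of 8 sham pools were above naïve in the authors' values.

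The main arm of the hairpin Mir214, mmu-miR-214, was above background in all 17 samples. In IRI its level was 529 (day 1), 1732 (day 3), 1871 (day 5), 2773 (day 7), 3338 (day 10), 3596 (day 14), 3272 (day 21) and 2132 (day 30). In sham controls it was 672 (day 1), 436 (day 3), 740.3 (day 5), 861 (day 7), 1382 (day 10), 699 (day 14), 1681 (day 21) and 2164 (day 30). IRI was low on day 1 and highest on day 14, and the 2 highest sham pools were those of days 21 and 30, so the arms overlapped. The naïve level of 1433 lay within both ranges, above 6 of 8 sham pools and below 7 of 8 IRI pools.

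**Figure D2:**
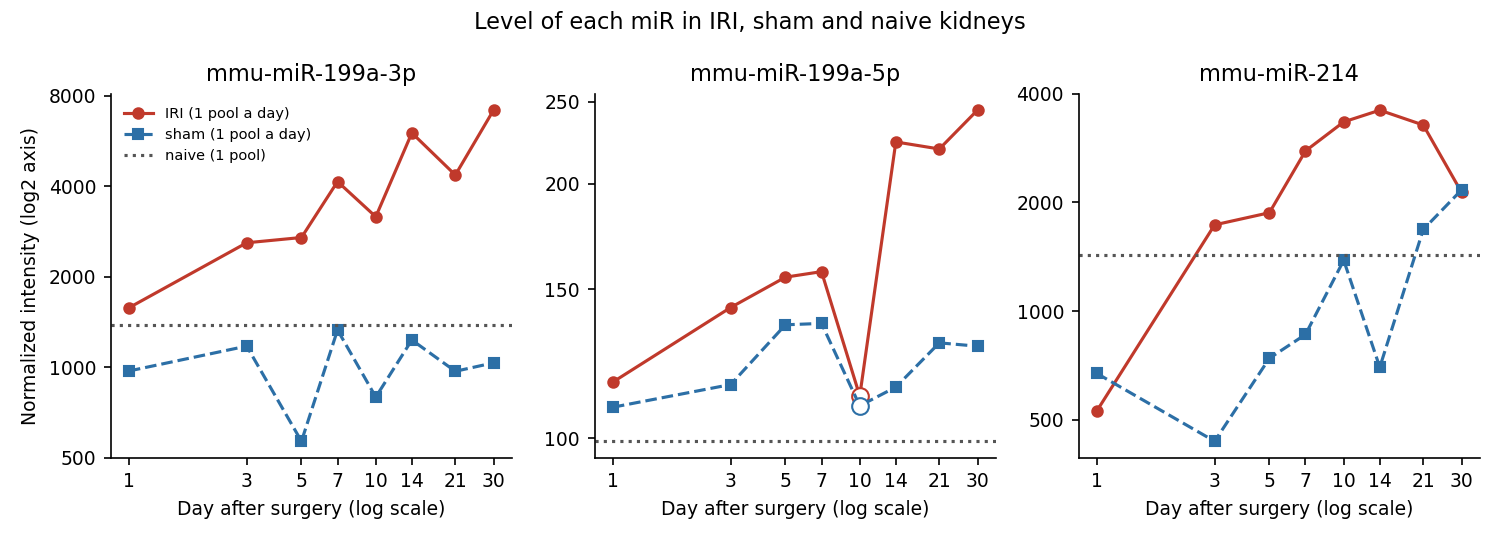
Normalized intensity (y axis, log2 scale, a different range in each panel) of the 3 miRs against the day after surgery (x axis, log scale), with 1 pool of 3 mice per point. IRI is red, sham is blue, the dotted line is the naïve pool, and open circles mark values not above background. MiR-199a-3p of IRI lay above sham on every day, whereas those of miR-214 stood at 2132 and 2164 on day 30.

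In the order of mean log2 levels, mmu-miR-199a-3p stood at 11.81 ± 0.71 (SD, n = 8) in IRI, at 10.43 in naïve (n = 1) and at 9.93 ± 0.39 (SD, n = 8) in sham. The IRI mean exceeded naïve by 1.38, more than the SD of IRI, and the sham mean differed from naïve by -0.49, more than the SD of sham but less than that of IRI. For mmu-miR-214 the order was the same, with 11.05 ± 0.90 (SD, n = 8) in IRI, 10.48 in naïve and 9.89 ± 0.78 (SD, n = 8) in sham, and neighbours in this order differed by less than the SD of either arm. For mmu-miR-199a-5p the levels were 7.37 ± 0.43 in IRI and 6.93 ± 0.14 in sham (SD, n = 8 each), with 6.63 in naïve. The naïve values rest on 1 dim array, on which mmu-miR-199a-3p had an intensity of 701 and mmu-miR-214 of 703 over empty spots of 511, and no test against naïve was run. Naïve and sham also differed in dye, so the position of sham against naïve cannot be told apart from a dye effect.

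The first question was whether the miRs were higher in IRI than in sham over all days. In limma (Benjamini-Hochberg adjustment over 162 miRs, threshold 0.05), mmu-miR-199a-3p and mmu-miR-214 were called higher, as were 18.5% of all tested miRs. The paper already names both as different between IRI and sham, so their calls and ranks are not independent of earlier results. The dim mmu-miR-199a-5p also passed, but it reached the level of 200 that admits a miR to the test in IRI pools alone, those of days 14, 21 and 30, so its test is not independent of the filter. The log2 IRI/sham ratio of mmu-miR-199a-3p was 0.70 (day 1), 1.14 (day 3), 2.25 (day 5), 1.64 (day 7), 1.99 (day 10), 2.29 (day 14), 2.17 (day 21) and 2.79 (day 30). It was above 0 on 8 of 8 arrays and ran from a 1.62-fold difference on day 1 to a 6.93-fold difference on day 30. Its mean was 1.87 (SE 0.22, 3.66-fold, adjusted p = 0.000575 from limma), the 2nd highest of the 162 miRs. An exact two-sided sign-flip test over the 8 arrays gave p = 0.00781, the smallest that 8 arrays allow. In bulk tissue, more cells that hold a miR and more of the miR per cell cannot be told apart.

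The ratio of mmu-miR-214 was -0.34 (day 1), 1.99 (day 3), 1.34 (day 5), 1.69 (day 7), 1.27 (day 10), 2.36 (day 14), 0.96 (day 21) and -0.02 (day 30). It was above 0 on 6 of 8 arrays, namely those between the first and the last day. The standard error over spots was 0.04 on day 1 and 0.05 on day 30, so the value of day 30 lay within its spot error of 0 and that of day 1 did not. In the authors' values both days were below 0, at -0.34 on day 1 and -0.36 on day 30. Spots of an array share its RNA, and their error does not hold the variation between mice. The mean was 1.16 (SE 0.30, 2.23-fold, adjusted p = 0.0209 from limma), the 8th highest, with an exact sign-flip p = 0.0312. The call was lost without day 7 (adjusted p = 0.0531), without day 14 (0.0527) and without day 21 (0.0506), while the mean stayed between 0.98 and 1.37 with each day left out.

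The ratio of mmu-miR-199a-5p was 0.10 (day 1), 0.30 (day 3), 0.19 (day 5), 0.20 (day 7), 0.04 (day 10), 0.96 (day 14), 0.76 (day 21) and 0.93 (day 30). It was above 0 on 8 of 8 arrays, with small values up to day 10 and larger ones from day 14 on, but that of day 10 came from channels not above background and was smaller than its spot standard error of 0.07. The mean was 0.44 (SE 0.13, 1.35-fold, adjusted p = 0.0330 from limma, exact sign-flip p = 0.00781). As stated above, neither test is independent of the filter, which IRI pools alone passed. With no filter on low values the adjusted p was 0.0492, and without day 10 the mean was 0.49 (adjusted p = 0.0364). The size depended on the processing, and the mean ratio was 0.87 ± 0.62 (SD, n = 8) with plain background subtraction and 0.70 ± 0.48 with the authors' values. With median scaling it was 0.53 (adjusted p = 0.0788), above 0 on 7 of 8 arrays, and with a floor of 200 it was 0.0736 (adjusted p = 0.226), above 0 on 3 of 8, and both ended the call. The call was lost without day 7, 14, 21 or 30 (adjusted p = 0.0531, 0.0778, 0.0813 and 0.0706).

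**Figure D3:**
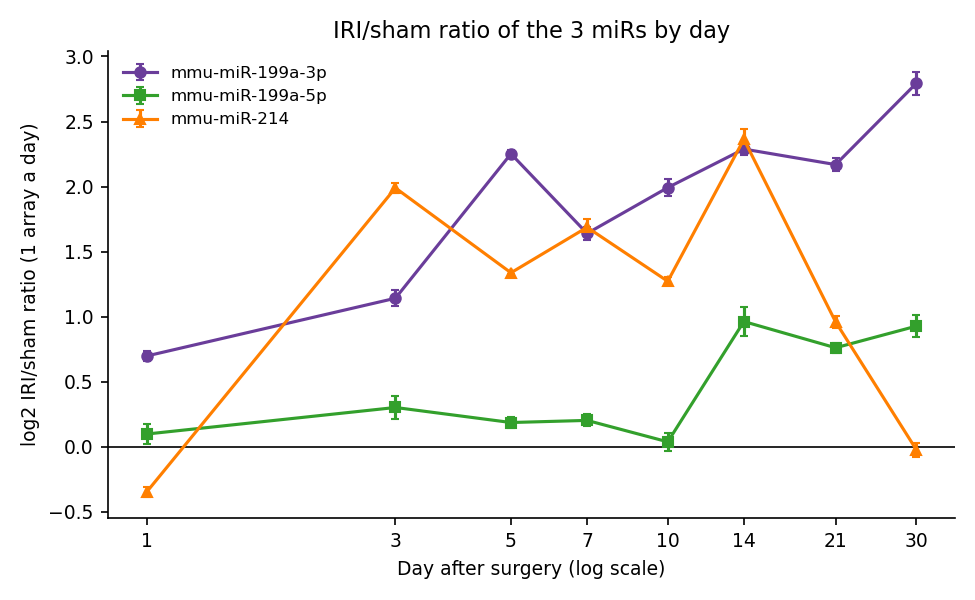
Log2 IRI/sham ratio (y axis, 1 array per point, bars: standard error over 6 spots) of the 3 miRs against the day after surgery (x axis, log scale). MiR-199a-3p ended at 2.79 on day 30, miR-199a-5p stood at 0.76 to 0.96 from day 14 on, and miR-214 returned from 2.36 on day 14 to -0.02 on day 30.

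The second question was whether the difference between arms changed with time, tested as the slope of the log2 ratio per doubling of the day. The ratio of mmu-miR-199a-3p rose by 0.39 per doubling (SE 0.07, adjusted p = 0.0253 from limma), and an exact two-sided permutation of the days gave p = 0.00186. Of all tested miRs 1.23%, 2 of 162, had a ratio that rose by this test. The slope lay between 0.36 and 0.42 with each day left out, but its adjusted p passed 0.05 without day 1, 3, 7, 14, 21 or 30 (up to 0.133) and with the authors' values (0.0807). The call was also lost with median scaling (adjusted p from limma 0.0882), no filter (0.0846), an intensity trend with robust prior (0.0614), untransformed day (0.0518) and no replicate block (0.102). The slope of mmu-miR-199a-5p was 0.17 (SE 0.07, adjusted p = 0.191 from limma, exact permutation p = 0.0430 before adjustment). With no filter its adjusted p from limma was 0.422. Since late IRI pools alone brought mmu-miR-199a-5p past the filter, the tests of its slope are not independent of that filter. The slope of mmu-miR-214 was 0.09 (SE 0.21, adjusted p = 0.850 from limma) and depended on single days. It was -0.41 (adjusted p = 0.274) without day 1, 0.33 without day 30, 0.18 without day 3 and 0.02 without day 14.

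Within IRI, both miRs that were above background in all samples rose with the day in the processing used here. The slope of the log2 level per doubling of the day was 0.41 for mmu-miR-199a-3p (SE 0.07, adjusted p = 0.0132 from limma) and 0.46 for mmu-miR-214 (SE 0.11, adjusted p = 0.0401), and 4.32% of the tested miRs, 7 of 162, rose by this test. Without day 1 the slope was 0.41 (adjusted p = 0.0919) for mmu-miR-199a-3p and 0.19 (adjusted p = 0.543) for mmu-miR-214. The call of mmu-miR-214 was also lost without day 3, 5, 7, 14 or 21 (adjusted p = 0.0605, 0.0691, 0.0551, 0.0748 and 0.0970). Median scaling ended both calls (adjusted p = 0.174 for mmu-miR-199a-3p and 0.0877 for mmu-miR-214), and that of mmu-miR-214 also ended with background subtraction (0.0521), a floor of 200 (0.128), no filter (0.130) and untransformed day (0.497). For mmu-miR-199a-5p the slope was 0.21 (SE 0.07, adjusted p = 0.0838), and 0.23 (adjusted p = 0.00945) without day 10, on which it was not above background. With no filter the adjusted p from limma was 0.191. Because mmu-miR-199a-5p reached 200 in the IRI pools of days 14, 21 and 30 alone, the test of its IRI slope is not independent of the filter.

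Within sham controls the 2 miRs differed in their estimates. The slope of mmu-miR-199a-3p was 0.02 (SE 0.09, adjusted p = 0.997 from limma). The slope of mmu-miR-214 was 0.37 (SE 0.12, adjusted p = 0.213), the 4th highest of 162, with an exact permutation p = 0.0277 before adjustment. It ran from 0.29 without day 30 to 0.60 without day 1 (adjusted p = 0.0899). That of mmu-miR-199a-5p was 0.03 (SE 0.04, adjusted p = 0.935). None of the 3 passed the threshold, and 0.617% of the tested miRs, 1 of 162, rose in sham.

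Whether the 3 miRs moved together was then tested on pairs. The log2 ratio of mmu-miR-199a-3p exceeded that of mmu-miR-214 by 1.04 (day 1), 0.91 (day 5), 0.72 (day 10), 1.21 (day 21) and 2.81 (day 30). It was lower by a difference of -0.85 on day 3, and the miRs differed by -0.05 on day 7 and -0.07 on day 14, about as much as the standard error of the spots. The slopes of the 2 ratios differed by 0.30 per doubling of the day, with a 95% interval from -0.32 to 0.92 and an exact permutation p = 0.283 (adjusted over 3 pairs, 0.424). Single days moved this difference from 0.0355 without day 30 to 0.78 without day 1 (adjusted p = 0.0545). Between the 2 arms of miR-199a, the slope of mmu-miR-199a-3p exceeded that of mmu-miR-199a-5p by 0.21 (-0.04 to 0.46, exact permutation p = 0.0809, adjusted 0.243), by 0.12 without day 1, by 0.11 with the authors' values and by 0.15 with plain background subtraction. These probes do not read 1 hairpin alone, since both sequences are also found at Mir199a-1 and that of mmu-miR-199a-3p at Mir199b. Between mmu-miR-199a-5p and mmu-miR-214 the slopes differed by 0.09 (-0.53 to 0.70, exact permutation p = 0.748, adjusted 0.748). The last difference was 0.23 with the authors' values, 0.16 with plain background subtraction and -0.18 without day 30, and without day 1 it was 0.66 (adjusted p = 0.0446 by exact permutation). With a floor of 200 the difference between the 2 arms of miR-199a was 0.34 (adjusted p = 0.0112 by exact permutation). In the processing used here, over all 8 days, no difference in slope passed the threshold, and the intervals include differences larger than the slopes themselves.

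Correlations over the 8 days were computed for 3 pairs on 3 scales, 9 relations in all, with exact permutation p-values adjusted over the 9. For the IRI/sham ratios of mmu-miR-199a-3p and mmu-miR-199a-5p, Pearson's r was 0.64 (exact p = 0.0877, adjusted 0.263) and Spearman's rho 0.62 (exact p = 0.115). Without days 1 and 3, the 2 days on which the ratio of mmu-miR-199a-3p lay farthest from its median, r was 0.68. Here and below, such days were picked by the first-named miR of a pair alone, so an extreme day of the other can remain. For the ratios of mmu-miR-199a-3p and mmu-miR-214, r was 0.11 (exact p = 0.806, adjusted 0.867) and rho 0.10 (exact p = 0.840), and r was -0.59 without days 1 and 3. For mmu-miR-199a-5p and mmu-miR-214, r was 0.07 (exact p = 0.867, adjusted 0.867) and rho 0.33 (exact p = 0.428), and r was 0.10 without days 14 and 30. The order of these estimates changed with the processing and the days. With median scaling r was 0.35 for the 2 arms of miR-199a and 0.58 for mmu-miR-199a-5p with mmu-miR-214, and without day 30 it was 0.50 for the arms and 0.53 for mmu-miR-199a-3p with mmu-miR-214. Without day 1 both relations with mmu-miR-214 were below 0, at -0.63 for mmu-miR-199a-3p and -0.22 for mmu-miR-199a-5p.

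On the levels in IRI the estimates were higher. The r of mmu-miR-199a-3p with mmu-miR-199a-5p was 0.85 (exact p = 0.00816, adjusted 0.0734; rho 0.86, exact p = 0.0107), and 0.75 without days 1 and 30. With mmu-miR-214 it was 0.74 (exact p = 0.0299, adjusted 0.135; rho 0.69, exact p = 0.0694), and 0.81 without days 1 and 30. Between mmu-miR-199a-5p and mmu-miR-214 it was 0.47 (exact p = 0.244, adjusted 0.550; rho 0.33, exact p = 0.428), and 0.46 without days 14 and 30. Since levels on 1 array share its normalization and the miRs were followed along the same days, these r values include any common course with time.

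In sham the r of mmu-miR-199a-3p was -0.12 with mmu-miR-199a-5p (exact p = 0.787, adjusted 0.867; rho 0.12, exact p = 0.793). It was -0.14 with mmu-miR-214 (exact p = 0.753, adjusted 0.867; rho -0.24, exact p = 0.582). Between mmu-miR-199a-5p and mmu-miR-214 it was 0.27 (exact p = 0.516, adjusted 0.867; rho 0.36, exact p = 0.389). Without the 2 farthest days these became 0.20, -0.54 and 0.26. None of the 9 relations passed the threshold after adjustment.

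The miRs whose ratio ran most like that of each member were found among the other 161 tested miRs by Pearson's r over the 8 arrays, as a description. For mmu-miR-199a-3p they were miR-146a (0.81), known for damping inflammatory signalling, miR-676 (0.80), miR-26b (0.78), miR-361 (0.76) and miR-10a* (0.76). Here mmu-miR-199a-5p came 17th and mmu-miR-214 72nd, where the median r over all miRs was 0.05. For mmu-miR-199a-5p they were miR-146b (0.98), miR-181d (0.96), miR-342-3p (0.93), miR-100 (0.92) and miR-28 (0.91), with mmu-miR-199a-3p at rank 27 and mmu-miR-214 at rank 84 (median r 0.11). For mmu-miR-214 they were miR-672 (0.94), miR-709 (0.90), miR-671-5p (0.89), miR-423-5p (0.81) and miR-705 (0.79). The mean log2 ratios of these 5 were between -0.72 and -0.08, unlike the 1.16 of mmu-miR-214 itself. Here mmu-miR-199a-3p came 55th and mmu-miR-199a-5p 59th, where the median r was -0.08.

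**Figure D4:**
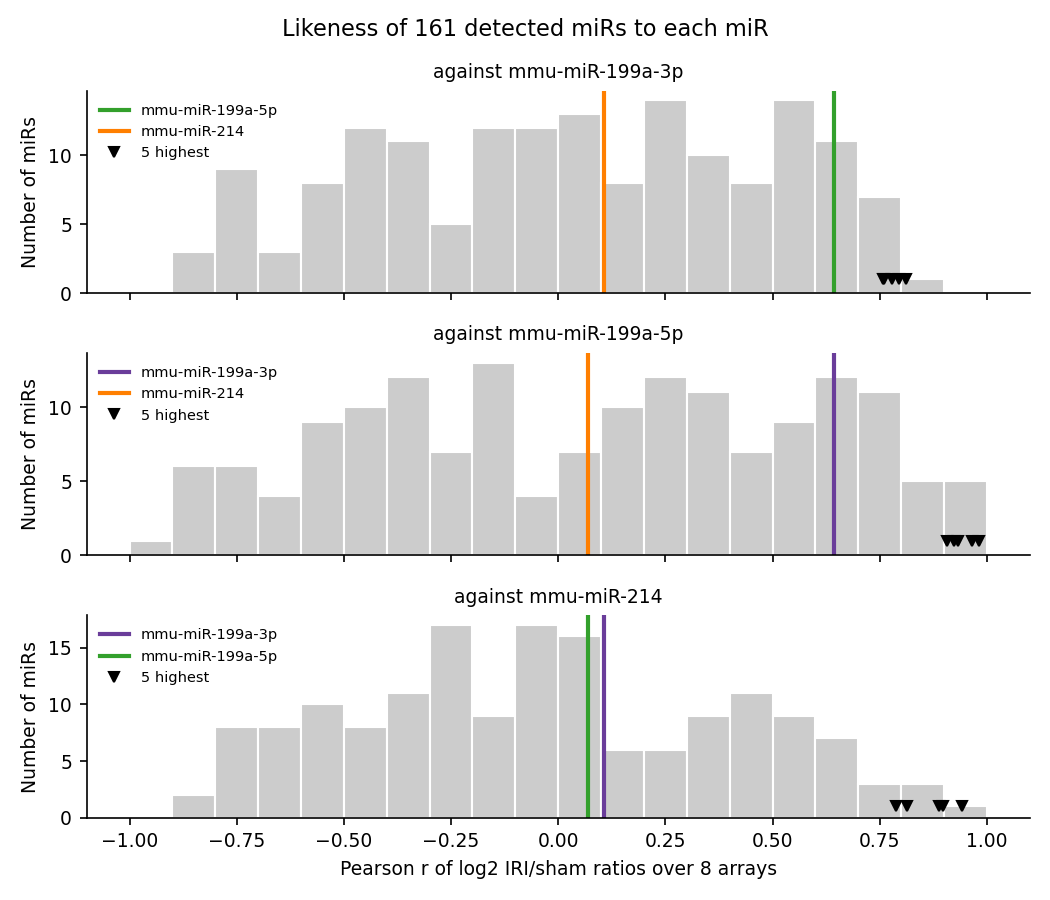
Number of miRs (y axis) by Pearson r of their log2 IRI/sham ratios over 8 arrays (x axis) with each of the 3 miRs, over the 161 other tested miRs. Coloured lines mark the other members of the cluster and triangles the 5 highest r, which no line reaches: the nearest is miR-199a-5p at 0.64 against miR-199a-3p.

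A list of 12 miRs known from kidney fibrosis was set beside the cluster. Of these, 9 were tested, of which 3 were higher and 1 was lower in IRI over all days, where 18.5% of all tested miRs (30 of 162) were higher and 17.9% (29 of 162) lower, with a median log2 ratio of -0.06 beside -0.04 over all 162 miRs. MiR-21, a miR that promotes fibrosis in the injured kidney, had a mean ratio on the log2 scale of 2.51 (limma, SE 0.19, adjusted p = 5.77e-05), above that of mmu-miR-199a-3p. MiR-155, known from activated leukocytes, had 1.52 (SE 0.20, adjusted p = 0.000881), and miR-132 had 1.06 (SE 0.13, adjusted p = 0.000575). MiR-192, a miR of tubule cells, had -0.88 (SE 0.19, adjusted p = 0.0126). MiR-29a and miR-29c, repressors of collagen transcripts, had -0.18 and -0.06 and did not pass. In none of the 9 did the ratio change with the day past the threshold.

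MiRs that mark kidney cell types also moved with the comparison. Of 5 leukocyte miRs 3 were tested, and miR-155 and the lymphocyte miR-150 (0.92, adjusted p = 0.0258 from limma) were higher in IRI. The myeloid miR-223 had 0.98 (adjusted p = 0.0129), but it reached 200 in IRI pools alone, with 109 to 374 in IRI and 81.3 to 129.6 in sham, and was above background in 9 of 17 samples. The untested miR-142-3p was at 89.7 to 101.5 in IRI and 89.9 to 103 in sham. MiR-142-5p, also untested, was at 86.8 to 102.5 in IRI and 89.5 to 98.1 in sham. Each was above background in 2 of 17 samples, so a change in them could not be read. The summed normalized level of the 5 leukocyte miRs was 1448 to 3266 in IRI and 820.2 to 1176 in sham. Of 13 tubule miRs 11 were tested, 6 of them lower and 0 higher beside the shares of all miRs given above, with a summed level of 26893 to 43992 in IRI and 32636 to 43855 in sham. Named in the order of size, the 4 lowest were miR-200a at -1.11 (adjusted p = 0.0229), miR-192, miR-194 at -0.76 (adjusted p = 0.00982) and miR-429 at -0.51 (adjusted p = 0.0330). Of the tubule miRs without a call, miR-30b (0.26) and miR-200c (0.16) had a mean ratio above 0. The part of these shifts in the levels of the cluster was not tested.

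Other cell types did not show a call in the mean ratio. The smooth muscle and pericyte miRs miR-143 and miR-145 had -0.14 and -0.13, and their summed level was 2720.4 to 5792 in IRI and 2544 to 9588 in sham. The endothelial miR-126-3p had -0.03, with a sum of 5400 to 9101 in IRI and 4998 to 8828 in sham for both of its arms. The ratio of the erythroid miRs fell with the day, by 0.78 per doubling for miR-451 (adjusted p = 0.0129 from limma) and by 0.59 for miR-486 (adjusted p = 0.0252), opposite in sign to mmu-miR-199a-3p and as in 1.23% of the tested miRs, 2 of 162, and their summed level with miR-144 was 328 to 1209 in IRI and 395 to 1491 in sham. For 4 muscle miRs the sum was 391 to 517 in IRI and 382 to 425 in sham. The liver miR miR-122 was at 58.1 to 104 in IRI and 96.1 to 3092 in sham. The sum of 2 neuron miRs was 189.7 to 235 in IRI and 183 to 230.0 in sham. Of all these lists 0 markers were below background in every sample. No miR other than the members themselves was taken as a fibroblast marker, so that the name of the cluster could not be checked against the cells of these samples.

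**Figure D5:**
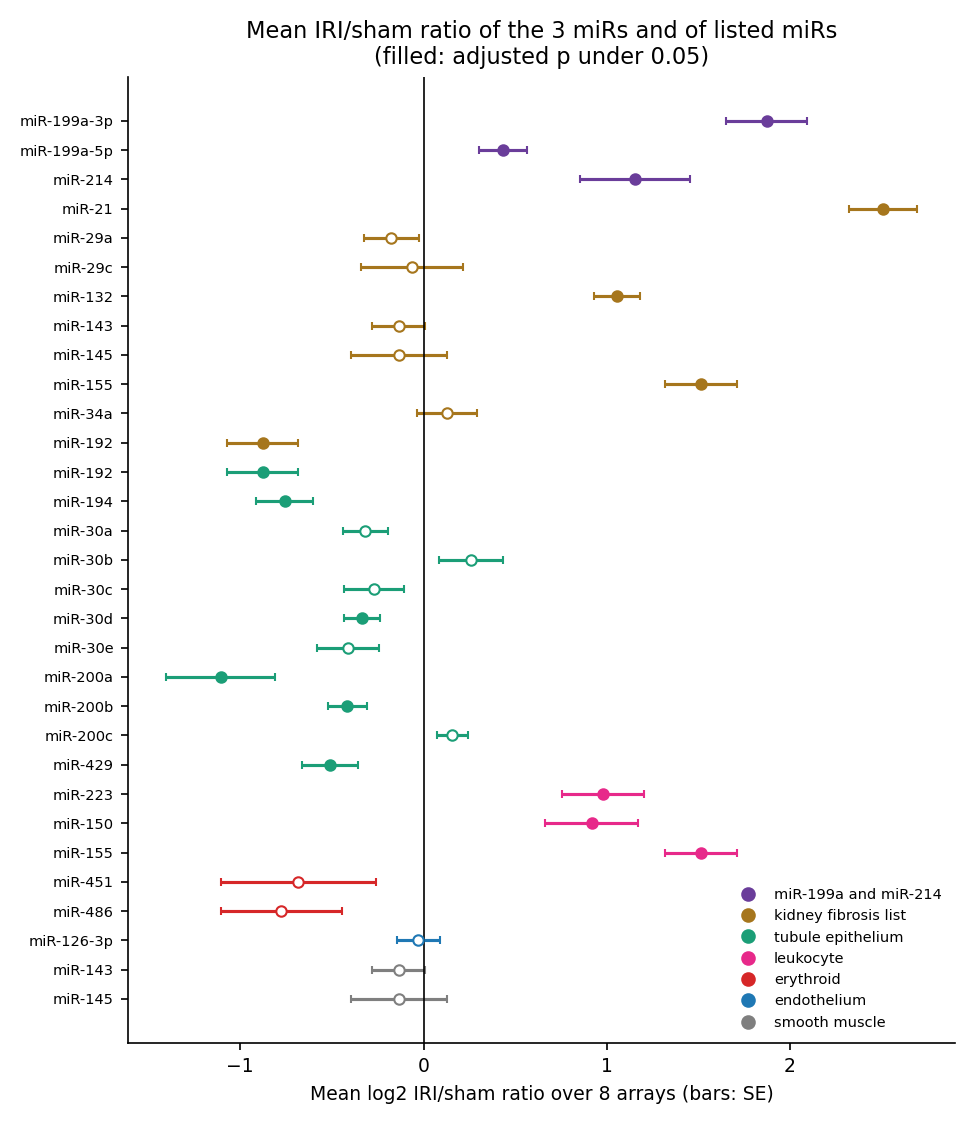
Mean log2 IRI/sham ratio over 8 arrays (x axis, bars: SE from limma) of the 3 miRs and of the tested miRs of the kidney fibrosis, tubule, leukocyte, erythroid, endothelial and smooth muscle lists, with filled points at an adjusted p under 0.05. MiR-192, miR-155, miR-143 and miR-145 are on 2 lists and drawn on each, and miR-199a-3p at 1.87 lies between miR-155 at 1.52 and miR-21 at 2.51.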

How the data were processed

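Kidney RNA of 17 pooled samples was read on 9 arrays. The authors deposited the mean intensity of every spot, and a table of 1 processed intensity per miR and sample, whose software and normalization are not given in the sources used here. It was matched to the scanner channels by correlation, 0.981 or higher with the own channel and 0.956 or lower with the other. This also showed which day 5 column is IRI, since its header names no arm. Intensities were corrected with normexp (offset 50), averaged over 6 spots, normalized by loess within arrays (span 0.3) and quantile normalization of mean log2 intensities, with limma 3.58.1 in R 4.3.3. Log2 IRI/sham ratios were tested by limma (mean, and slope over log2 day) with Benjamini-Hochberg adjustment over 162 miRs that reached 200 in at least 1 sample. Samples sharing a number shared an array and a day, so the ratio blocks by array. Deviations of the 2 channels of an array from their arm means correlated between -0.06 and 0.71. Single values were tested by exact permutation with scipy 1.17.1, and the scripts were tested on simulated data. The 3 members were given, and named with them are the 5 miRs of highest r and up to 4 called miRs a list. The listed miR-208 was not analysed here. Members and lists were chosen with earlier results of these data known. Whether the pools of different days are separate experiments is not stated, and p-values measure the spread between them. The alternatives tried were plain background subtraction, median scaling of channels, the authors' table, the median of spots, a floor of 200, no filter, a mean filter, an intensity trend with robust prior, untransformed day, no replicate block and each day left out.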

Additional observations from a re-analysis of the deposited data

Results flagged for a closer look

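The log2 IRI/sham ratio of mmu-miR-199a-3p had a slope of 0.39 per doubling of the day, and was listed because the slope of the ratio tests the difference between the courses of IRI and sham (adjusted p = 0.0253 from limma). The call was lost when any 1 of 6 of the 8 days was left out, and under 6 other alternatives, among them the authors' values (adjusted p = 0.0807) and no replicate block (0.102). The level of mmu-miR-214 in IRI on day 1 was far below the other 7 IRI pools, at a log2 normalized value of 9.05, with a gap to the next pool of 0.619 of the whole range of IRI. It was the 1 value so marked among levels and ratios of the 3 miRs, and chance marks about 1 in 20 groups.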

How the results depend on the processing

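Of 294 recomputed values of the 3 miRs, 243 kept their direction and side of the threshold, 34 lost the call, 4 gained it and 13 changed sign. The mean ratio of mmu-miR-199a-3p and of mmu-miR-214 kept its call under every alternative other than leaving out days 7, 14 or 21 for mmu-miR-214 (0.98 to 1.37 over all days left out). The ratio slope of mmu-miR-199a-3p lost its call with median scaling (0.37), the authors' processed values (0.35), no filter (0.39), an intensity trend with robust prior (0.39), untransformed day (0.0552 per day) and no replicate block (0.39, adjusted p = 0.102), and ran from 0.36 to 0.42 with each day left out. Without the replicate block, run for the mean ratio and the ratio slope, no other call of these in the 3 miRs changed, and 2 in place of 4 miRs had a called ratio slope. Median scaling also ended the calls of the IRI slopes (0.42 for mmu-miR-199a-3p, 0.47 for mmu-miR-214) and of the mean ratio of mmu-miR-199a-5p (0.53), which a floor of 200 ended too (0.0736). The IRI slope of mmu-miR-214 lost its call with background subtraction (0.51), a floor of 200 (0.46), no filter (0.46) and untransformed day (0.0437 per day), under which its ratio slope was -0.0229. With each day left out, IRI slopes ran from 0.38 to 0.45 (mmu-miR-199a-3p), 0.18 to 0.25 (mmu-miR-199a-5p, called at 0.23 without day 10) and 0.19 to 0.62 (mmu-miR-214), the sham slope of mmu-miR-199a-3p from -0.00592 to 0.0510, the mean ratio of mmu-miR-199a-5p from 0.36 to 0.49 and the ratio slope of mmu-miR-214 from -0.41 to 0.33.

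The slope difference of mmu-miR-199a-3p and mmu-miR-199a-5p passed the threshold with a floor of 200 (0.34), where most values of mmu-miR-199a-5p are equal by construction. That of mmu-miR-199a-5p and mmu-miR-214 was -0.0369 with that floor and ran from -0.18 to 0.66 with each day left out, past the threshold without day 1. The r of the ratios of mmu-miR-199a-3p and mmu-miR-214 was -0.0164 with median scaling and ran from -0.63 to 0.53 over days left out. The r of mmu-miR-199a-5p and mmu-miR-214 was -0.14 with background subtraction, -0.31 with the authors' values and -0.23 with a floor, but 0.58 with median scaling, and ran from -0.31 to 0.45 with each day left out. That of the 2 miR-199a arms was 0.35 with median scaling. For mmu-miR-199a-5p, limma gave no value with the authors' values, background subtraction or a mean filter, under which it was too low to be tested. The number of miRs called in the mean ratio was 59, and 100 with no filter, 30 with a floor and 26 to 59 with each day left out. It was 4 for the ratio slope (0 to 19 over all alternatives), 14 for the IRI slope (2 to 22) and 2 for the sham slope (0 to 5). Except where stated, the cause was not tested. Low signal over background limits what can be said of mmu-miR-199a-5p and of the naïve pool. The tests of mmu-miR-199a-5p in the mean ratio, the ratio slope and the IRI slope are also not independent of the filter, which it passed through late IRI pools alone.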
